A study of Mus musculus with 12 samples.

Results

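The Trim5-like cluster and 3 other antiviral TRIM genes were followed in mammary tissue of mice that differ in the number of intact Stat5a and Stat5b alleles. The 9 genes, of 19324 named on the array, were Trim12a, Trim12c, Trim34a, Trim30a, Trim30d and Trim5 for the cluster, and Trim21, Trim25 and Trim14 elsewhere. Every probe set whose platform gene symbol is or includes 1 of them was read, which gave 21 of 45101: 14 for the cluster and 7 for the other 3 genes. Of the 21, 17 passed a filter on low signal (mean over the 12 arrays at or above log2 6.04, the 30th percentile of probe sets other than controls). The 4 below it belong to Trim12a, Trim30d, Trim14 and to the pair Trim34b and Trim34a. The genes were picked with the difference between the single-allele genotypes already known, so that difference is given as a description, without a test.

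Tissue was collected 6 days after a mating plug, from 3 mice of each genotype, and the labels name C57BL/6, FVB and 129 as strains of their mixed background. Single-Stat5b mice (labelled Stat5abnull/Stat5a-) kept 1 Stat5b allele and no intact Stat5a. Single-Stat5a mice (Stat5abnull/Stat5b-) kept 1 Stat5a allele and no intact Stat5b. Stat5a-/- mice kept 2 Stat5b alleles, and Stat5ab+/null mice 1 allele of each gene. By their labels all 4 genotypes lack at least 1 Stat5a allele, and mice with all 4 alleles were not analysed here. The labels also describe an injection of PolyIC, a double-stranded RNA mimic that induces interferon and thereby Mx1-Cre, and they speak of sorted cells, while the design gives whole mammary tissue. Whether any of these mice received it is left unsettled there, and its part in the levels of interferon genes was not tested. The labels do not say how far the mice of a genotype are independent (litters, for example), and p-values measure only the spread between these arrays.

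The arrays fell into 2 sets, single-Stat5b with single-Stat5a and Stat5a-/- with Stat5ab+/null. Pearson r across probe sets was 0.818 to 0.883 between the sets and 0.948 or more within them. Actin control probes gave a 3' over 5' difference, which is larger for degraded RNA, of 2.16 to 3.78 in the first set and 0.13 to 0.27 in the second. Allele total and array set cannot be told apart, so levels are compared within a set. Stat5a itself, read by its brighter probe set, averaged 10.98 ± 0.11 in single-Stat5b arrays, against 12.21 ± 0.34 in single-Stat5a arrays (SD, n = 3). It averaged 10.30 ± 0.18 in Stat5a-/- arrays, against 9.91 ± 0.15 in Stat5ab+/null arrays, which goes against the first label, so the wording "arrays labelled Stat5a-/-" is used. Its second probe set averaged 5.05 ± 0.08 in single-Stat5b and 5.29 ± 0.35 in single-Stat5a, and 8.94 ± 0.34 in Stat5a-/- and 8.37 ± 0.40 in Stat5ab+/null. Stat5b did not follow the labelled alleles in full either. Its brighter probe set averaged 9.63 ± 0.27 in single-Stat5b, against 9.43 ± 0.25 in single-Stat5a, which has no intact Stat5b, and the other 6.79 ± 0.16 against 6.15 ± 0.14. In Stat5a-/-, with 2 Stat5b alleles, they averaged 9.59 ± 0.07 and 8.27 ± 0.09, against 9.90 ± 0.07 and 8.52 ± 0.18 in Stat5ab+/null, with 1. The sources used here do not say whether these probes fall inside the deleted sequence. Epithelial markers (6 of 6 measured) averaged 11.87 to 12.72 per array. The defining markers of fat, endothelium, macrophages, lymphocytes and muscle were measured as well. The number of arrays limits the precision.

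Most TRIM proteins carry a RING domain, a B-box and a coiled coil, and many act as ubiquitin ligases in antiviral defence. The gene for primate TRIM5, whose protein binds the capsids of incoming retroviruses, has no single counterpart in the mouse but a group of paralogues that arose by duplication: Trim5, Trim12a, Trim12c and the Trim30 genes, beside Trim34 and Trim6. Interferon raises many TRIM transcripts through the factor ISGF3 at an interferon-stimulated response element, and Stat5 binds another element, the gamma-activated site.

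In GRCm38.p6 the cluster spans chr7:104244448-104507853, 263.4 kb from Trim34a through Trim5, Trim12a, Trim12c and Trim30a to Trim30d. Trim21 lies on the same chromosome at chr7:102557920-102565482, Trim25 at chr11:88999403-89020294 and Trim14 at chr4:46505072-46536150. Start regions in RefSeq (250 bases before to 50 after the start of transcription, GRCm38.p6) were found for 8 of the 9 genes, with no entry for Trim14. The 6 of the cluster are printed because they show how close these paralogues are around their starts. Most of each window lies before the start of transcription, and probe positions were not available. The windows therefore do not show how far signals can be assigned to 1 gene. Capitals mark the core of the interferon-stimulated response element (GAAA, any 2 bases and GAAA again, on either strand).
Trim34a (chr7:104244207-104244506, plus strand): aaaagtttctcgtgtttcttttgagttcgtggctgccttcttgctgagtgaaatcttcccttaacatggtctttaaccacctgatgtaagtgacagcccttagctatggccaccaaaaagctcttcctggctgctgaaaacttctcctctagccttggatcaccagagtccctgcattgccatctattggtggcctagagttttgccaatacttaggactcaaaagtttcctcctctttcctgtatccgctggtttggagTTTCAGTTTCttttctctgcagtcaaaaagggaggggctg
Trim5 (chr7:104288057-104288356, minus strand): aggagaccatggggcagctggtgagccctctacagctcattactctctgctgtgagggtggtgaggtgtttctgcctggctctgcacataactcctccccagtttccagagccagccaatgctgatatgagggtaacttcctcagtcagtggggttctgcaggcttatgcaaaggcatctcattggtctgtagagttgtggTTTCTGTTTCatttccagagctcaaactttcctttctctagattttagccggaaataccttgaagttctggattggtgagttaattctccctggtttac
Trim12a (chr7:104315446-104315745, minus strand): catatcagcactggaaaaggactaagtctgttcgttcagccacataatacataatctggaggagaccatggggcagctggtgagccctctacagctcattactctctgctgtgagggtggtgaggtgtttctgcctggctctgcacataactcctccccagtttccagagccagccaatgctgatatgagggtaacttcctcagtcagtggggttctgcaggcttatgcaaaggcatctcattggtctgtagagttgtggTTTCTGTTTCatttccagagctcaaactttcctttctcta
Trim12c (chr7:104353300-104353599, minus strand): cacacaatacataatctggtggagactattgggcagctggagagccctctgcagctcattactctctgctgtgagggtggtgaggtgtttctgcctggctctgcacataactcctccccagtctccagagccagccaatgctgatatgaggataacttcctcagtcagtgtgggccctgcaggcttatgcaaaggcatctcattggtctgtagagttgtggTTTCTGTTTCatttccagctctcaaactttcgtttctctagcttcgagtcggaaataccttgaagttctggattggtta
Trim30a (chr7:104465144-104465443, minus strand): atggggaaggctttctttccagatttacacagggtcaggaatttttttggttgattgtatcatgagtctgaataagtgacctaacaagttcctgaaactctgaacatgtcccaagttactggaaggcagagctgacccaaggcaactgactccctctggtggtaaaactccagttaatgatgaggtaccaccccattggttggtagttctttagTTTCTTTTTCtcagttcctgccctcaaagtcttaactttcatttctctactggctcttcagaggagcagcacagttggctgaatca
Trim30d (chr7:104507800-104508099, minus strand): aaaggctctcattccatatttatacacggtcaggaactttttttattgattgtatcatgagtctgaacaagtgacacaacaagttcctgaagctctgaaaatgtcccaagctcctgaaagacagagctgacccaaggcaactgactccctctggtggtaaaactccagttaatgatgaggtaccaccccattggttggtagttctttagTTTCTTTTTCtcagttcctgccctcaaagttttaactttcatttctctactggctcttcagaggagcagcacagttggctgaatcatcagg

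The windows of Trim5 and Trim12a were identical over all 241 aligned bases, and those of Trim12a and Trim12c over 247 of 261 aligned positions (94.6%). The windows of Trim30a and Trim30d matched at 276 of 294 positions (93.9%). Each of these 6 windows held the response element core 1 time, and so did a second start of Trim30a. Trim21 held 2 overlapping matches and Trim25 none. Of all 32851 windows of this length, 3.44% held the core. The Stat5-type site TTCNNNGAA, a palindrome, was in none of the 9 member windows, against 8.3% of all windows. A match is a description of the letters, and its absence says only that these letters are not in the window.

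Between single-Stat5b and single-Stat5a the cluster did not move as 1 block. The largest difference was that of Trim12a. Probe set 1437432_a_at had 4.37, 4.70 and 4.23 log2 signal in single-Stat5b arrays, against 10.31, 10.23 and 10.06 in single-Stat5a arrays. It was lower by 5.76 on the log2 scale in the means, written as -5.76, and no array of either group came near the other. The second Trim12a probe set, 1420648_at, had 5.51, 5.22 and 5.48 in single-Stat5b arrays and 5.57, 5.52 and 5.54 in single-Stat5a arrays, all under the filter level. Its difference was -0.14, with 5.51 against 5.52 in the nearest arrays, and the 2 probe sets of this gene thus gave different pictures.

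Trim34a, whose human counterpart acts with TRIM5 on some retroviral capsids, also split by probe set. Probe set 1424857_a_at had 6.19, 6.89 and 5.09 in single-Stat5b arrays, against 10.40, 10.09 and 10.21 in single-Stat5a arrays (difference -4.18). Probe set 1426093_at had 8.85, 9.60 and 8.73 in single-Stat5b arrays and 9.31, 9.71 and 9.16 in single-Stat5a arrays (difference -0.34), with overlapping groups. Of the 2 probe sets annotated to both Trim34b and Trim34a, 1421550_a_at had 5.24, 5.34 and 5.05 in single-Stat5b arrays and 8.13, 7.67 and 7.90 in single-Stat5a arrays (difference -2.69). The other, 1426092_a_at, stayed between 4.66 and 5.76 in all 6 arrays.

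Trim5 itself, probe set 1442693_at, had 5.70, 5.72 and 5.59 in single-Stat5b arrays, against 7.98, 7.59 and 7.71 in single-Stat5a arrays (difference -2.09). Every single-Stat5b array lay under the filter level and every single-Stat5a array above it. Trim12c, a paralogue that in the mouse has been tied to type I interferon and NF-kB signalling, ran the other way in both probe sets. Probe set 1443858_at had 8.83, 9.64 and 8.55 in single-Stat5b arrays, against 8.56, 8.42 and 8.62 in single-Stat5a arrays (difference 0.47). Probe set 1445271_at had 5.85, 5.96 and 6.15 in single-Stat5b arrays, against 5.27, 5.31 and 6.20 in single-Stat5a arrays (difference 0.39). Its means there, 5.99 and 5.59, both lie under the filter level. The groups overlapped for both probe sets, so Trim12c was separated between the genotypes by neither.

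Trim30d, a paralogue of Trim30a, had 5.80, 7.62 and 6.45 in single-Stat5b arrays, against 9.92, 9.63 and 9.73 in single-Stat5a arrays at probe set 1435665_at (difference -3.14). The single-Stat5b arrays were spread over 1.82 and the single-Stat5a arrays over 0.29. Trim30a, which in mouse macrophages restrains NF-kB by removing TAB2 and TAB3, differed less. Probe set 1417961_a_at had 8.18, 7.23 and 7.41 in single-Stat5b arrays, against 8.95, 8.82 and 8.57 in single-Stat5a arrays (difference -1.17). The brighter probe set 1451860_a_at had 10.46, 11.33 and 10.51 in single-Stat5b arrays and 11.31, 10.87 and 10.90 in single-Stat5a arrays (difference -0.26), and its groups overlapped. The probe set annotated to both Trim30d and Trim30a, 1456494_a_at, had 5.29, 6.51 and 6.38 in single-Stat5b arrays and 7.56, 7.11 and 6.99 in single-Stat5a arrays (difference -1.16). The remaining Trim30d probe set, 1438716_at, had a mean of 5.59 in single-Stat5b and 6.06 in single-Stat5a, with overlap.

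**Figure D1:**
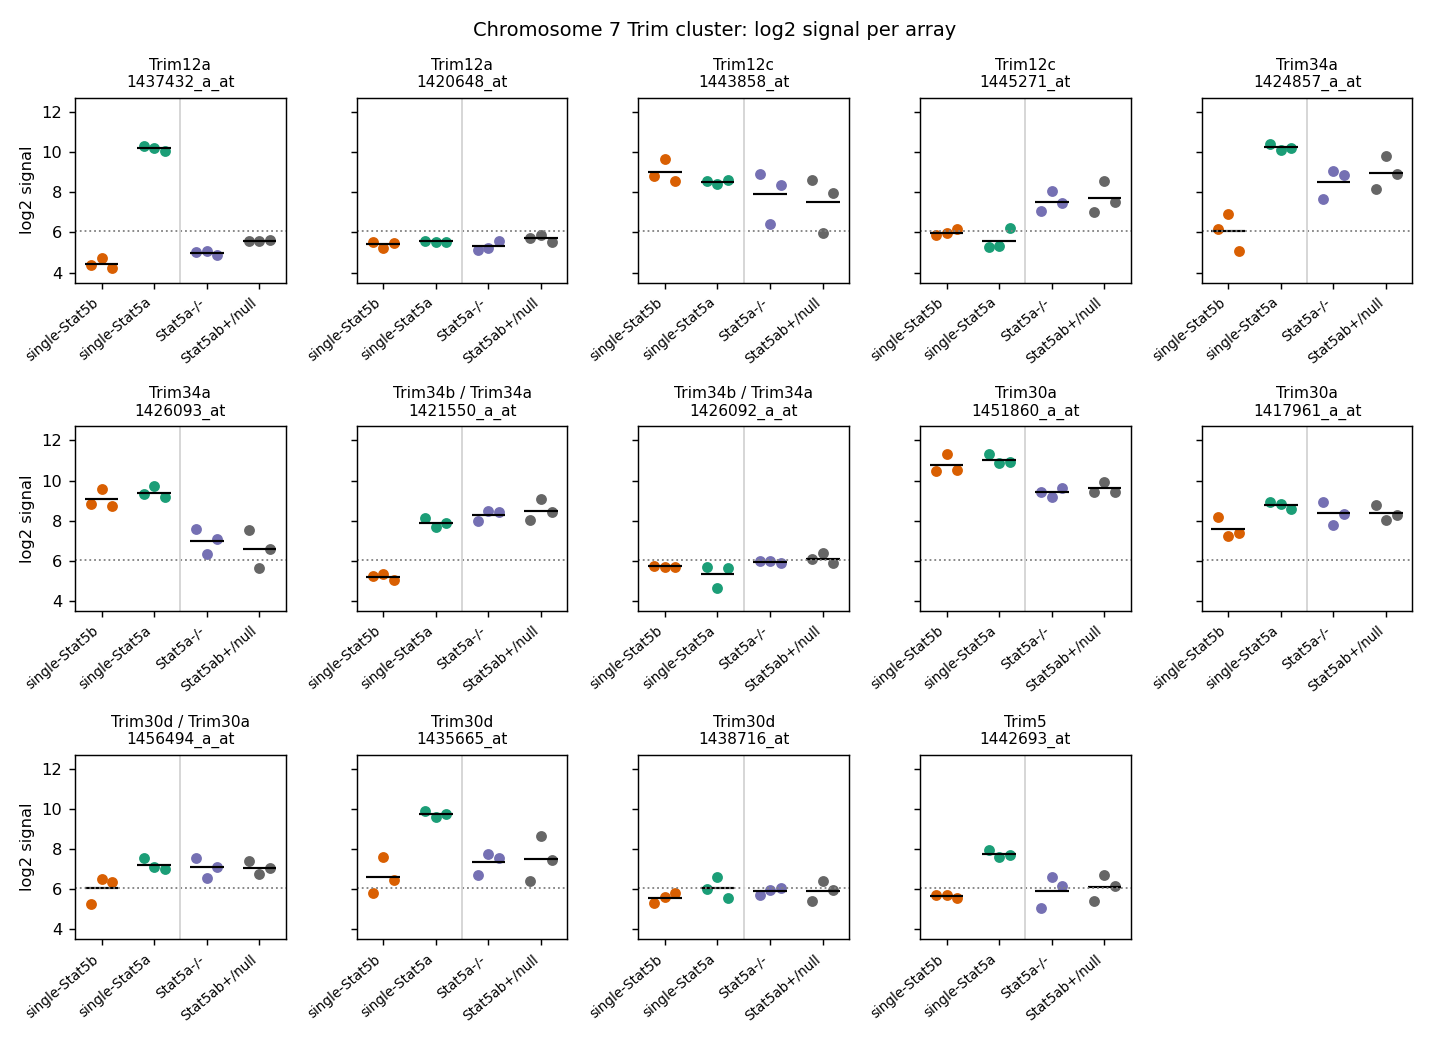
Log2 signal of the 14 cluster probe sets in each array, by genotype (points: arrays; black bars: means of 3; dotted line: the filter level of log2 6.04; vertical line: border between the array sets). Trim12a 1437432_a_at stands between 10.06 and 10.31 in single-Stat5a and at 5.63 or lower in all other arrays, while Trim12c differs little between the single-allele genotypes.

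Over all 14 cluster probe sets, 11 were below 0 in this difference and 3 above, with a median of -0.82 and a range of -5.76 to 0.47. The groups did not overlap for 8, each lower in single-Stat5b, among them the narrow gap of Trim12a 1420648_at. Over the 31526 probe sets past the filter, 11.5% had groups that did not overlap, 6.16% with single-Stat5b lower and 5.29% with it higher, and the median difference was -0.0014. Limma called 2.89% of them at an adjusted p under 0.05. Since the genes were chosen on this difference, nothing is read from these shares. Where a group mean lies under the filter level, as in single-Stat5b for Trim12a and Trim5, background was not measured and the difference is that of the printed values. Probe sequences were not used here, so which of the close paralogues Trim5, Trim12a and Trim12c, or Trim30a and Trim30d, gives a signal is uncertain. The labels do not record which alleles of the mixed background each mouse carries here. A difference in transcript level and a difference in how well the probes match the transcript therefore cannot be told apart, between genotypes or between mice of 1 genotype.

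**Figure D2:**
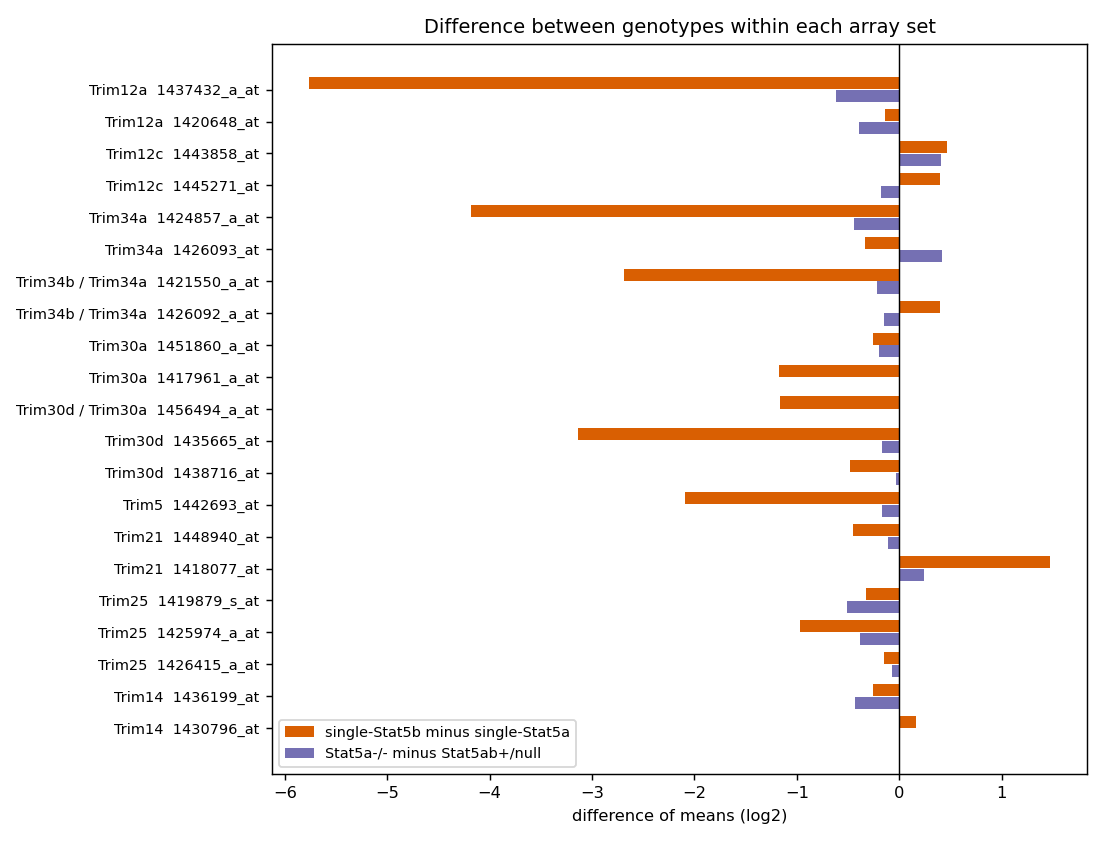
Difference of genotype means (log2) for all 21 member probe sets, for single-Stat5b minus single-Stat5a (orange) and Stat5a-/- minus Stat5ab+/null (violet). The first runs from -5.76 for Trim12a to 1.48 for Trim21, the second stays between -0.62 and 0.42.

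Of the marker lists, the endothelial and adipocyte means did not overlap between the single-allele genotypes, and the others did. The mean of the endothelial markers per array was 9.40 to 9.58 in single-Stat5b, against 9.93 to 10.07 in single-Stat5a (5 of 5 markers measured), and that of the adipocyte markers 12.53 to 12.88 in single-Stat5b, against 13.00 to 13.36 in single-Stat5a (4 of 5). Taken 1 by 1, 4 of the 5 endothelial markers were without overlap, while Tek differed by 0.08 with overlap. For the adipocyte markers it was 0 of 4, with Lep at -0.99, Cidec at -0.67, Adipoq at -0.18 and Fabp4 at 0.13. Muscle markers averaged 7.60 to 10.58 in single-Stat5b and 9.80 to 13.73 in single-Stat5a (6 of 6). Though these means overlapped, all 6 muscle markers were lower in single-Stat5b, with a median difference of -2.52. Only 1 of them was without overlap, and limma called none. Macrophage markers averaged 11.89 to 12.83 in single-Stat5b, against 12.27 to 12.37 in single-Stat5a (6 of 6). B cell markers averaged 7.52 to 8.87 in single-Stat5b and 6.93 to 8.38 in single-Stat5a (5 of 6). T cell markers averaged 6.76 to 8.71 in single-Stat5b, against 7.18 to 7.63 in single-Stat5a (5 of 6). Those of plasmacytoid dendritic cells, a main source of interferon, averaged 10.22 to 10.56 in single-Stat5b, against 10.06 to 10.49 in single-Stat5a (3 of 4). This mean joins markers of opposite direction. Siglech differed by 0.90 without overlap (8.93 in single-Stat5b and 8.04 in single-Stat5a, limma adjusted p = 0.157). Bst2, also on the effector list, differed by -0.83 and Tcf4 by 0.08, both with overlap. The 3' over 5' actin difference was 3.78, 2.41 and 2.16 in single-Stat5b arrays and 2.42, 2.16 and 3.07 in single-Stat5a arrays, with overlap. The part of these values in the differences of the TRIM genes was not tested. In whole tissue, fewer cells of a type and less RNA per cell cannot be told apart.

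Beside the cluster on chromosome 7, limma called 1 neighbouring gene on each side between single-Stat5b and single-Stat5a. Of the 14 measured genes before the cluster that are not members, differences ran from -1.07 to 1.12 with a median of -0.19. Of the 15 after it they ran from -1.76 to 0.25 with a median of -0.07. Trim6, the paralogue next to Trim34a at a distance of 9.30 kb, averaged 6.75 ± 0.40 in single-Stat5b arrays, against 7.82 ± 0.26 in single-Stat5a arrays (SD, n = 3), a fall of 1.07 that limma called (adjusted p = 0.0186). That call was lost without single-Stat5a 1 or single-Stat5b 1 and when the spread came from these 6 arrays alone. Hpx, the gene for the haem-binding plasma protein hemopexin, 1084 kb after the cluster, was the other one called, with a fall of 1.76 (adjusted p = 0.0160). It had 5.59 in single-Stat5b and 7.35 in single-Stat5a, a mean under the filter level in the first.

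**Figure D3:**
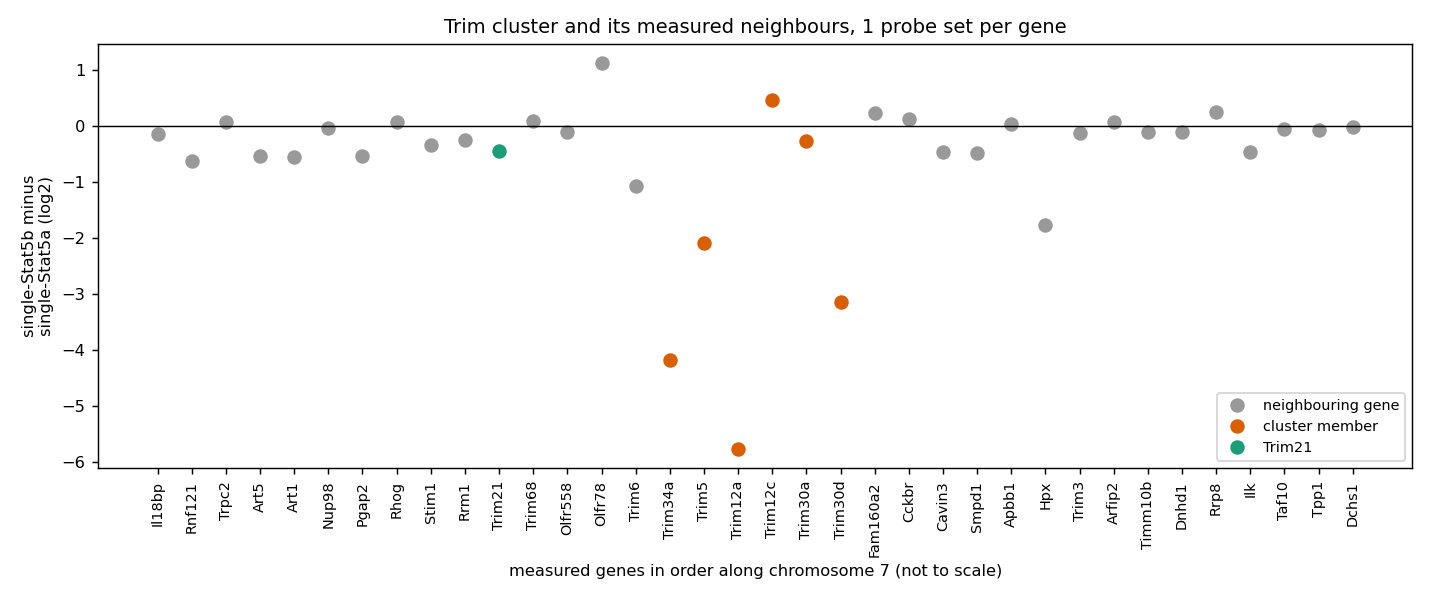
Single-Stat5b minus single-Stat5a (log2) for the measured genes around the cluster, in gene order along chromosome 7 and not to scale, with 1 probe set per gene. Trim34a, Trim5, Trim12a and Trim30d lie at -2.09 or lower, Trim12c at 0.47 and Trim30a at -0.26, and Trim6 (-1.07) and Hpx (-1.76) are the called neighbours.

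Genes with a pattern like that of Trim12a 1437432_a_at were ranked by Pearson r over the 12 arrays, after the mean of each array set was subtracted. Zfp874a on chromosome 13 was first (r = 0.997), followed by Cldn34c1 on X (0.994), Cpne8 on 15 (0.992), Gm14057 on 2 (0.990) and Pdxdc1 on 16 (0.990). None of these 5 lies on chromosome 7. These r values rest on the 3 single-Stat5a arrays standing apart from the 3 single-Stat5b arrays, and they are a description. Zfp874a had 4.59 in single-Stat5b and 9.46 in single-Stat5a. For Trim30a 1451860_a_at the leading genes were Btaf1 (0.895), Exoc5 (0.882), the interferon-induced ubiquitin ligase gene Herc6 (0.871), Slc38a3 (0.863) and Tubb5 (0.859), with single-allele differences of -0.31 to -0.07. In both lists the 5 genes are the highest of 26172 candidates, and no link between genes is read from them.

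In the 2-allele set the question is how an allele pair of Stat5b alone compares with a mixed pair, and the members were not chosen on these arrays. No member was called: 0 of 17 probe sets past the filter at an adjusted p under 0.05 by limma, with an adjusted p of 1.00 for each, and 1 at an unadjusted p under 0.05. Over all probe sets past the filter 0.00952% were called, which are 3 (Ido1, and 2 with no gene named, listed after their values were seen), and 2.84% had an unadjusted p under 0.05. Trim12a 1437432_a_at was the 1 member, at 5.00, 5.05 and 4.87 in arrays labelled Stat5a-/- and 5.57, 5.58 and 5.63 in Stat5ab+/null arrays. Its difference was -0.62 (SE 0.17, unadjusted p = 0.00274, limma adjusted p = 1.00), without overlap in 3 of 3 arrays per group, at a signal under the filter level in all 6. Trim12a 1437432_a_at and Trim5 1442693_at passed the filter only through single-Stat5a, with means of 5.00 and 5.90 over the other 9 arrays, and 0 of the 15 members left without them were called. With array weights limma called it (-0.56, adjusted p = 0.0179), in a fit that called 430 probe sets.

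Of the other cluster probe sets, Trim34a 1424857_a_at differed by -0.44 (SE 0.49), Trim34a 1426093_at by 0.42 (SE 0.43), Trim12c 1443858_at by 0.41 (SE 0.66), Trim5 by -0.17 (SE 0.37) and Trim30d 1435665_at by -0.17 (SE 0.52). The Trim30a probe sets differed by -0.20 (SE 0.26) and -0.0056 (SE 0.32). Every SE for this comparison is limma's, from a spread shared by all genotypes and not that of the arrays compared. The median SD within genotypes was 0.18 in this set and 0.34 in the single-allele set. Trim12c 1443858_at (1.35 against 0.40), Trim5 (0.73 against 0.15) and Trim34a 1426093_at (0.79 against 0.39) were wider here. So were Trim34a 1424857_a_at (0.79 against 0.65), Trim30d 1435665_at (0.89 against 0.66) and Trim30a 1417961_a_at (0.49 against 0.38). The SEs of all of these understate the spread of this set. Trim12a 1437432_a_at (0.068 against 0.19), Trim30a 1451860_a_at (0.27 against 0.39) and Trim25 1419879_s_at (0.16 against 0.56) were narrower here, so their SEs overstate it. Mice of 1 genotype differed from each other at this locus. Trim12c 1443858_at had 8.93, 6.44 and 8.36 in arrays 1, 2 and 3 labelled Stat5a-/-, against 8.61, 5.94 and 7.96 in the same numbers of Stat5ab+/null. Array 2 was low in each genotype and arrays 1 and 3 were high. Numbers name arrays in the order of the records and pair nothing across genotypes.

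Other cluster probe sets set the same arrays apart, some in the opposite direction. Trim34a 1426093_at had 7.57, 6.36 and 7.08 in the arrays labelled Stat5a-/- and 7.53, 5.65 and 6.58 in Stat5ab+/null arrays, with array 2 low again. Trim34a 1424857_a_at had 7.67, 9.06 and 8.84 in the arrays labelled Stat5a-/- and 8.18, 9.82 and 8.90 in Stat5ab+/null arrays, with array 2 high and array 1 low. Trim5 had 5.06, 6.59 and 6.15 in the arrays labelled Stat5a-/- and 5.41, 6.74 and 6.16 in Stat5ab+/null arrays. Array 2 was high and array 1 low here as well. Trim30d 1435665_at had 6.74, 7.77 and 7.58 in the arrays labelled Stat5a-/- and 6.42, 8.68 and 7.48 in Stat5ab+/null arrays, in the same order.

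In all, 9 of the 11 cluster probe sets past the filter had arrays 1 and 2 at opposite ends, and the same way round, in both genotypes, against 5.31% of all probe sets past the filter. Array 2 was the high one in 5 and array 1 in 4. Without Trim12a and Trim5, which passed the filter only through single-Stat5a, it was 8 of 9. None of the 6 probe sets of Trim21, Trim25 and Trim14 past the filter did so. The SD within genotypes of this set was 1.35 for Trim12c 1443858_at, 0.89 for Trim30d 1435665_at, 0.79 for both Trim34a probe sets and 0.73 for Trim5, where the median over all probe sets was 0.18 and the 95th percentile 0.49. For Trim21, Trim25 and Trim14 it was 0.13 to 0.25, and for the measured neighbours of the cluster it had a median of 0.20 before it and 0.15 after it. The widest neighbours were Olfr78 (SD 0.72, near the filter level) and Trim68 (SD 0.66), with SDs close to that of Trim5. Some cluster probe sets were narrower, with 0.27 for Trim30a 1451860_a_at, 0.41 for 1456494_a_at and 0.42 for 1421550_a_at. For Trim12a 1437432_a_at the SD was 0.068. Of the 52 probe sets with 1 gene that had a spread in the top 5% and this order of arrays, 7 belonged to the cluster. This pattern was noticed in the values and then counted. The B cell marker mean was 7.08, 7.09 and 12.04 in the arrays labelled Stat5a-/- and 8.23, 12.46 and 10.22 in Stat5ab+/null arrays, and its part in this pattern was not tested.

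**Figure D4:**
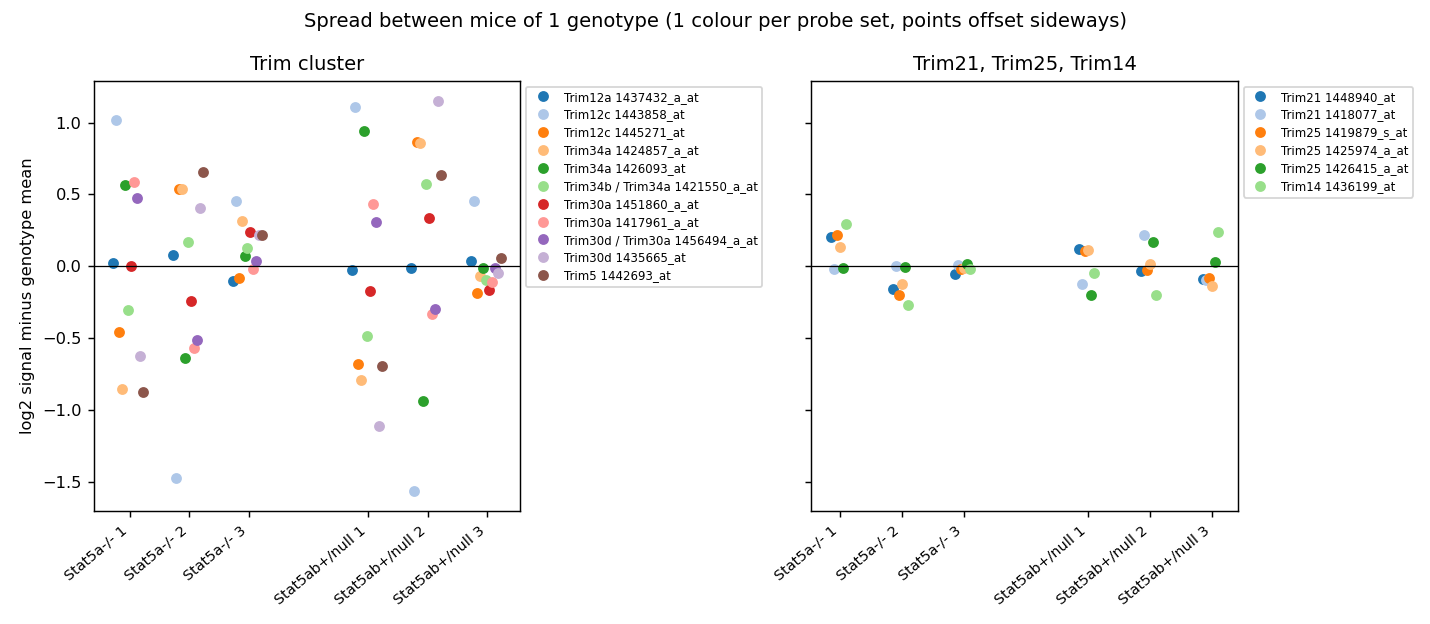
Log2 signal minus the genotype mean for each member probe set past the filter, in the arrays labelled Stat5a-/- and the Stat5ab+/null arrays (left: cluster, right: Trim21, Trim25 and Trim14). In 9 of the 11 cluster probe sets arrays 1 and 2 lie at opposite ends in both genotypes, while Trim12a 1437432_a_at stays near 0 and Trim30a 1451860_a_at has other arrays at its ends, and the right panel stays within 0.3 of 0.

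Across the array sets, where the set and the allele total cannot be told apart, levels are listed as a description. Trim12a 1437432_a_at averaged 10.20 ± 0.13 in single-Stat5a (SD, n = 3), and its other means (single-Stat5b 4.44 ± 0.24, Stat5a-/- 4.97 ± 0.09, Stat5ab+/null 5.59 ± 0.03) all lie under the filter level and have no order. Trim34a 1424857_a_at was ordered single-Stat5a (10.24 ± 0.16), Stat5ab+/null (8.97 ± 0.83), Stat5a-/- (8.53 ± 0.75) and single-Stat5b (6.06 ± 0.91), where the middle neighbours do not differ beyond their spread. Trim30d 1435665_at and Trim5 had the same order, with 9.76 ± 0.15 and 7.76 ± 0.20 at the top in single-Stat5a and 6.62 ± 0.92 and 5.67 ± 0.07 at the bottom in single-Stat5b. For both, Stat5ab+/null (7.53 ± 1.13 and 6.10 ± 0.66), Stat5a-/- (7.36 ± 0.55 and 5.93 ± 0.79) and single-Stat5b lie within their spread of each other, with Trim5 near or under the filter level in all 3. The order was not shared by the whole cluster. Probe set 1421550_a_at averaged 8.51 in Stat5ab+/null, 8.29 in Stat5a-/-, 7.90 in single-Stat5a and 5.21 in single-Stat5b. Trim12c 1445271_at averaged 7.70 in Stat5ab+/null and 7.53 in Stat5a-/-, against 5.99 in single-Stat5b and 5.59 in single-Stat5a. Trim12c 1443858_at was highest in single-Stat5b.

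Of the antiviral TRIM genes elsewhere, Trim21, the cytosolic antibody receptor that sends antibody-coated viruses to the proteasome, had probe sets in opposite directions. Probe set 1418077_at had 7.21, 7.02 and 8.01 in single-Stat5b arrays, against 6.34, 5.44 and 6.03 in single-Stat5a arrays (difference 1.48), without overlap. The brighter probe set 1448940_at had 11.26, 12.01 and 11.20 in single-Stat5b arrays and 12.06, 11.66 and 12.10 in single-Stat5a arrays (difference -0.45), with overlap. In the arrays labelled Stat5a-/- these probe sets stood at 9.23 ± 0.02 and 9.92 ± 0.19, and in Stat5ab+/null at 8.99 ± 0.19 and 10.03 ± 0.11 (SD, n = 3). The differences of 0.24 (SE 0.27) and -0.11 (SE 0.23) did not pass.

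Trim25, the ubiquitin ligase that acts on the RNA sensor RIG-I, had 9.19, 9.67 and 9.03 in single-Stat5b arrays, against 10.83, 9.68 and 10.29 in single-Stat5a arrays at probe set 1425974_a_at (difference -0.97). The nearest arrays of these groups stood at 9.67 and 9.68. At 1419879_s_at the difference was -0.32 and at 1426415_a_at -0.14, both with overlap. In the arrays labelled Stat5a-/-, 1419879_s_at had 11.29, 10.88 and 11.06, against 11.70, 11.56 and 11.51 in Stat5ab+/null arrays (difference -0.51, SE 0.30, unadjusted p = 0.109, limma adjusted p = 1.00). Probe set 1425974_a_at was likewise lower in every array labelled Stat5a-/- (10.88 ± 0.13 against 11.26 ± 0.13, difference -0.39, SE 0.26, limma adjusted p = 1.00). Trim14, an adaptor of the sensor pathway at mitochondria, had 8.22, 7.69 and 8.43 in single-Stat5b arrays and 8.24, 8.18 and 8.69 in single-Stat5a arrays at probe set 1436199_at (difference -0.26). It had 10.13, 9.57 and 9.82 in the arrays labelled Stat5a-/- and 10.22, 10.08 and 10.51 in Stat5ab+/null arrays (difference -0.43, SE 0.24, limma adjusted p = 1.00), with overlap. Its second probe set stayed under 5 in all 12 arrays. Of the 17 member probe sets past the filter, 4 had groups without overlap in this comparison, 3 of them lower in the arrays labelled Stat5a-/- and 1 higher. Over all probe sets past the filter 17.5% had such groups, 11.3% lower and 6.17% higher.

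**Figure D5:**
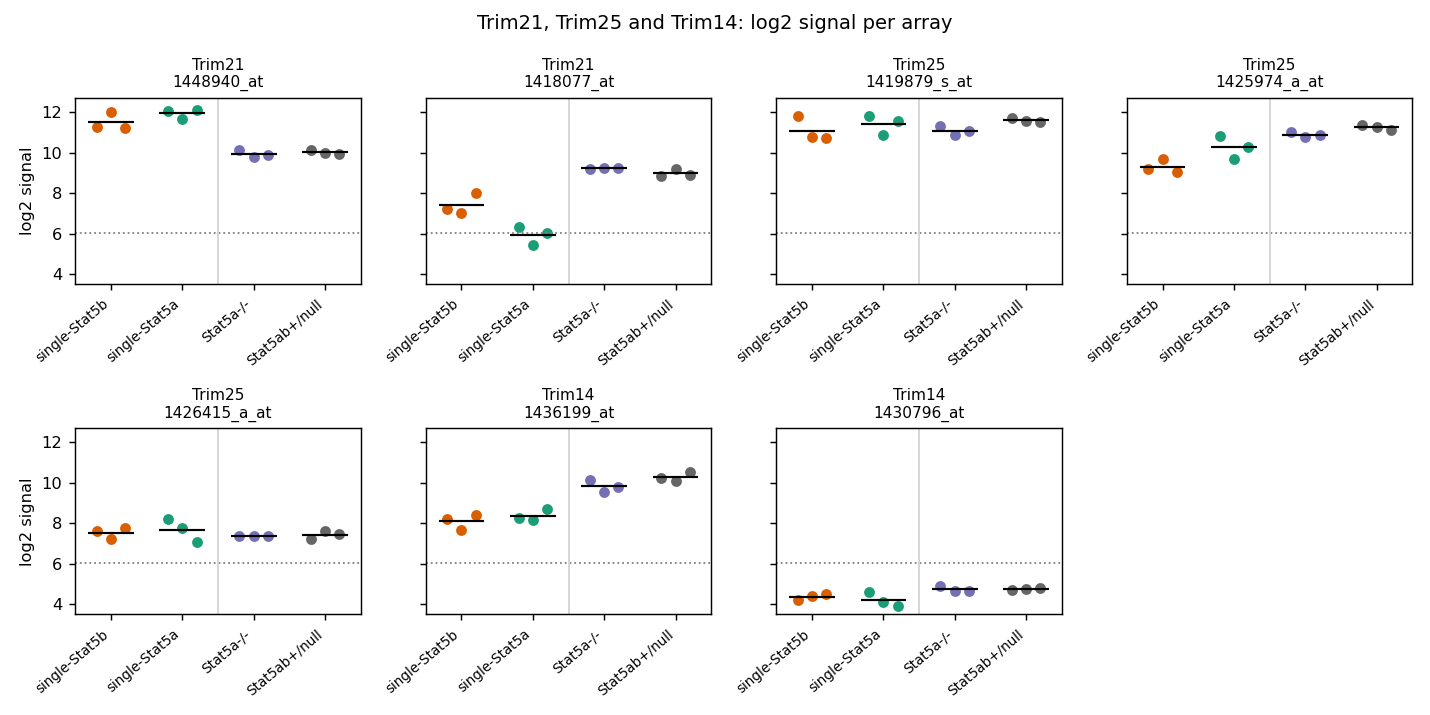
Log2 signal of the 7 probe sets of Trim21, Trim25 and Trim14 in each array, by genotype (points: arrays; black bars: means of 3; dotted line: the filter level). The Trim21 probe sets differ in opposite directions between the array sets, with 1418077_at higher and 1448940_at lower in the arrays labelled Stat5a-/- and in Stat5ab+/null than in the single-allele arrays.

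The other genes of the pathway were read with 1 probe set each. Of 43 measured interferon-induced effector genes, 40 were below 0 in single-Stat5b minus single-Stat5a, with a median of -0.31 where all 14198 genes had a median of -0.03 and 45.9% above 0. The effector list mean per array was 9.78, 9.80 and 10.16 in single-Stat5b arrays, against 10.33, 10.06 and 10.25 in single-Stat5a arrays, with overlap. Limma called 3 of the 43, and 2.37% of all genes. Ifit3, which binds foreign RNA with its partners, fell by 1.27 (9.55 ± 0.25 in single-Stat5b arrays, against 10.82 ± 0.26 in single-Stat5a arrays, SD, n = 3, limma adjusted p = 0.00188). Cxcl9, a chemokine for T cells, fell by 1.00 (9.82 ± 0.11 in single-Stat5b and 10.82 ± 0.12 in single-Stat5a, limma adjusted p = 0.00349). Ifi202b, a DNA-binding member of the Ifi200 family, rose by 5.75 (11.35 ± 0.44 in single-Stat5b and 5.60 ± 0.52 in single-Stat5a, limma adjusted p = 3.19e-08). Its single-Stat5a mean lies under the filter level, so the size of this difference is that of the printed values. None of the 16 receptor and signalling genes (median -0.18, 13 below 0) or the 18 sensing genes (median -0.06, 11 below 0) was called by limma, with 3 of each list at an unadjusted p under 0.05. The effectors had 15 of 43 at that level and all genes 11.3%. The lists were chosen with earlier results of these data known, so these shares are a description and no enrichment is read from them. Ddx58, the gene for RIG-I, differed by 0.09. Without single-Stat5b 3 the number called over these lists was 14 of 77, and without single-Stat5b 2 it was 5.

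Of 37 other TRIM genes, Trim6 was the 1 called, 19 were above 0 and 18 below, and the median was 0.0026. Pml, a TRIM gene induced by interferon, differed by -0.23 (adjusted p = 0.772). In Stat5a-/- minus Stat5ab+/null, limma called none of the 77 pathway genes or of the 37 other TRIM genes, and 0.00704% of all genes. Of the 77, 64 were below 0 (median -0.13), where 33.6% of all genes were above 0 and their median was -0.08. At an unadjusted limma p under 0.05 there were 2 of the 77, Ifi204 (difference 0.75) and Gbp3 (difference -0.45), and 0 of the 37. With array weights 1 of the 77 was called.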

How the data were processed

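Transcripts were measured in mammary tissue of 12 mice on Affymetrix arrays, with biotin-labelled cRNA made from total RNA, per the labels. The log2 signals per probe set are as the authors deposited them. RMA and Partek are named per the submitters' processing notes, without versions, and array medians differed. Genotypes came from the labels, and replicate numbers follow record order. The platform table gave 34945 probe sets 1 gene, 932 several and 9160 none, beside 64 controls. Probe sets from the 30th percentile of the mean upward (31526) entered limma (3.58.1, under R 4.3.3) with a mean for each genotype and a spread shared by 12 arrays, with 2-sided moderated tests, Benjamini-Hochberg adjustment over all probe sets past the filter, and calls at an adjusted p under 0.05. Tested on simulated data for Stat5a-/- minus Stat5ab+/null, this fit recovered 39 of 100 changes of log2 1 and 91 of 100 of log2 2 among 31526 probe sets, with 8 false calls. The simulated arrays all had 1 SD per probe set, pooled over the 12 arrays. These counts are therefore not the recovery at the spread of this set alone or of the members. For lists, the probe set with the highest mean stood for a gene. Members and lists were chosen with earlier results of these data known. Named were all member probe sets, called list genes (at most 4 per direction), called neighbours among the 15 measured genes on either side, and the 5 genes most like Trim12a and Trim30a. Uncalled genes named beside them (Ddx58, Pml, Ifi204, Gbp3) were chosen after their values were seen. Exact permutation of 3 arrays against 3 cannot go below p = 0.1 and was not used. Alternatives were other filters, scalings, summaries, variance models, covariates and left-out arrays.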

Additional observations from a re-analysis of the deposited data

How the results depend on the processing

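Over the alternatives run, Trim12a 1437432_a_at kept its direction in single-Stat5b minus single-Stat5a at -5.90 to -5.66, Trim5 at -2.17 to -1.95 and Trim30d 1435665_at at -3.73 to -2.72. Trim34a 1424857_a_at ran from -4.60 to -2.26, the last with the mean of its probe sets, and Trim21 1448940_at gave 0.51 with that mean, which joins probe sets of opposite direction. In Stat5a-/- minus Stat5ab+/null no member was called in any alternative but array weights, with 1 (Trim12a); there Trim12c 1443858_at ran from -0.62 to 1.14 with its sign turned in 3 of 25, and Trim5 from -0.51 to 0.31. Probe sets called between single-Stat5b and single-Stat5a, 912 as reported, were 534 with the filter at the 50th percentile, 310 with the highest probe set per gene, 342 with probe sets averaged per gene (fewer features tested), 478 with only these genotypes, 348 with the array of highest actin 3' minus 5' signal of each genotype left out (chosen after seeing the data), and 668 to 2015 without 1 array, the highest without single-Stat5b 3. Interferon pathway genes called there, 3 as reported, were 7 with array weights, 1 without the 4 arrays of highest actin signal, and 3 to 14 without 1 array. The 1 other TRIM gene was lost (0 called) with the filter at the 50th percentile, with no moderation, with only these genotypes and without those 4 arrays, and the count was 0 to 1 without 1 array. In Stat5a-/- minus Stat5ab+/null the 3 probe sets called became 1 with the highest probe set or the mean per gene, 430 with array weights, 0 with no moderation, with the B cell mean as a covariate and without those 4 arrays, and 0 to 6 without 1 array, 0 without any one of Stat5a-/- 2, Stat5ab+/null 1 and Stat5ab+/null 2; interferon pathway genes were 1 with array weights and otherwise 0. The cause of these changes was not tested. No paired analysis was possible because the labels give the genotypes no shared replicate numbers.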
